A study of Mus musculus with 12 samples.

Results

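The ERK pathway restrains itself through genes that its own activity switches on. The 10 feedback genes described here were picked by symbol, not by any measured value. They were the phosphatases Dusp1, Dusp4, Dusp5 and Dusp6, the inhibitors Spry1, Spry2, Spry4 and Spred1, and the transcription factors Etv4 and Etv5. All 10 were found among the 43280 gene rows of the count table, and 8 of them passed the filter on low counts. The tissue was whole hypothalamus of C57/Bl6 pups at postnatal day 6, from 6 control and 6 MMS pups. MMS (modified maternal separation) is a mild early life stress in which pups were parted from the dam for a short time on successive days and turned onto their backs meanwhile, and brains were taken straight after the last session. Control pups stayed out of these sessions, all pups were male, and males of a litter were divided between both groups. Which litter a library came from is not known, and p-values take each pup as a separate sample. Messenger RNA was read from its 3' end, so that transcript length has little bearing on the count, and levels are given as CPM (counts scaled to library size), the scale on which genes were compared with each other.

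In the pathway a growth factor such as FGF or EGF binds its receptor, RAS is loaded with GTP, and a chain of kinases ending in MEK and ERK passes the signal to the nucleus. Dusp genes encode phosphatases that take the activating phosphates off MAP kinases. The DUSP6 protein is cytoplasmic and prefers ERK, DUSP4 and DUSP5 are nuclear, and DUSP1 is a nuclear enzyme that also acts on p38 and JNK and whose gene is an immediate early gene and a target of glucocorticoids. Sprouty and Spred proteins act upstream, close to the receptor and RAS, and Etv4 and Etv5 encode ETS factors of the PEA3 group that are transcribed downstream of FGF signalling. In brain these genes are used as a readout of FGF and ERK activity in progenitors, glia and neurons. A whole-tissue measurement cannot tell fewer cells of a type from less RNA per cell.

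Library totals ran from 3218777 to 6560620 counts. On the first principal component of all tested genes MMS 2 and MMS 4 were at 57.8 and 46.3, far from the remaining 10 libraries at -14.4 to -3.04. Results are therefore given with and without them. Their summed level of 12 ependymal cilia markers was 18.3 and 33.5 CPM, where controls ran from 73.9 to 176 CPM. Of 15 hypothalamic markers all had counts over the libraries together, and their sum ran from 1100 to 2090 CPM in controls and from 1476 to 1922 CPM in MMS pups. Single markers were mixed in MMS 2 and MMS 4. Agrp (0 and 0.71 CPM, lowest control 2.72 CPM), Rax (0 in both, lowest control 1.09 CPM) and Hmx3 (2.69 and 2.66 CPM, lowest control 3.86 CPM) were below all controls. Pmch (635 and 929 CPM, highest control 500 CPM) and Hmx2 (8.60 and 8.34 CPM, highest control 8.22 CPM) were above all controls. The 6 pituitary markers did not pass the count filter, with sums of 0.229 to 23.6 CPM in controls and 0 to 41.2 CPM in MMS pups, and Pou1f1 was at 0.

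None of the members changed in MMS pups at an adjusted p under 0.05. In edgeR 0 of 8 tested members and 0 of all 13104 tested genes (0%) passed it, and in DESeq2 0 of 10 members and 6 of 23534 genes (0.0255%) did. Without MMS 2 and MMS 4, 0 members and 5 of 13407 genes (0.0373%) passed in edgeR. At an unadjusted p under 0.05, 1 of 8 members was called in edgeR and also 1 of 10 in DESeq2, the gene being Spry2 in both, where the share among all genes was 9.08% in edgeR (1190 genes, 4.68% higher and 4.4% lower) and 6.23% in DESeq2. Without MMS 2 and MMS 4, 2 of 9 members, Dusp4 and Spry2, were called in edgeR at that unadjusted p, beside 5.03% of genes. With all 12 libraries, 5 of the 8 members had a log2 fold change above 0 and 3 below, with a median of 0.01. Over all tested genes the median was 0.0009. In no member did all MMS libraries lie on one side of all controls, a pattern found in 0.389% of tested genes.

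**Figure D1:**
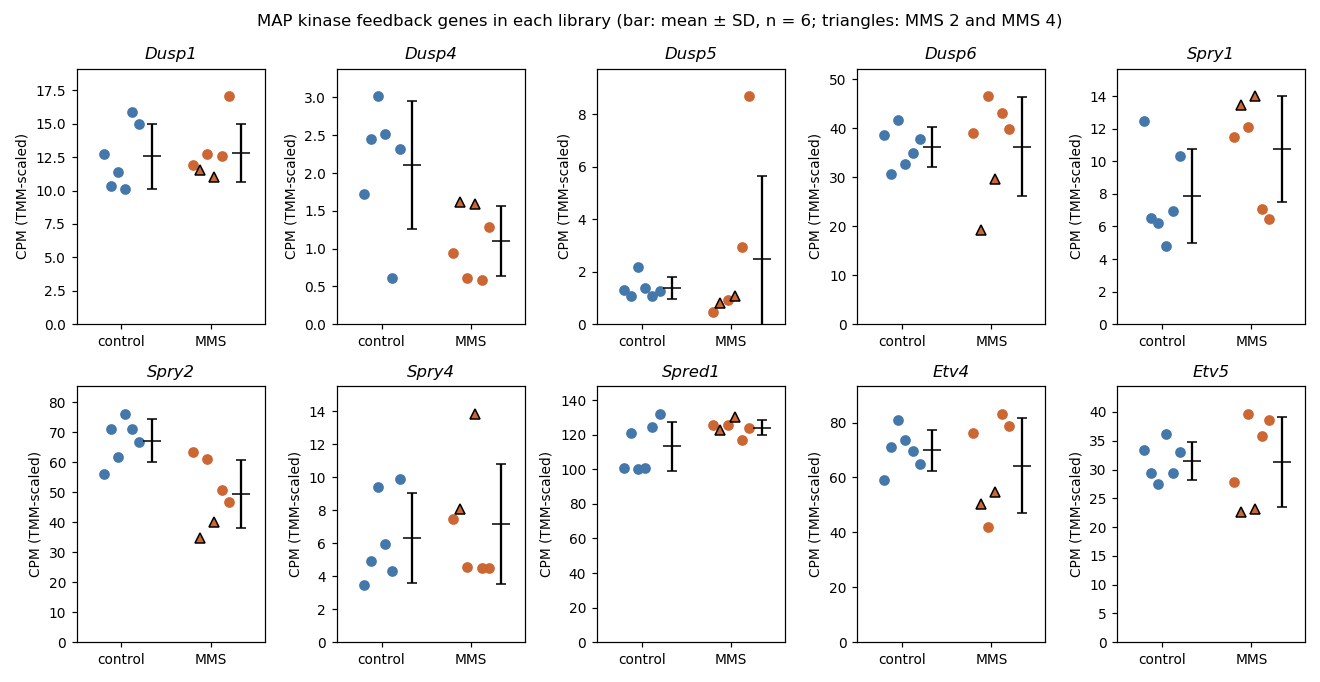
Level of each of the 10 feedback genes in CPM on the y axis (linear, from 0) for 6 control and 6 MMS libraries, 1 point per library, with the mean and SD of each group beside it and MMS 2 and MMS 4 as triangles. The groups overlap in every panel, Spry2 has 4 MMS libraries below the lowest control, and 1 MMS library reaches 8.70 CPM for Dusp5, whose MMS error bar runs below the axis.

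Among the phosphatases, the abundant and ERK-selective Dusp6 (chr10:99263231-99267489, plus strand) had nearly equal means in both groups. The control mean was 36.2 ± 4.09 CPM and the MMS mean 36.3 ± 10.1 CPM (SD over 6 pups each). Controls ran from 30.7 through a median of 36.5 to 41.8 CPM, and MMS pups from 19.3 through 39.5 to 46.6 CPM. The MMS values thus lay on both sides of the controls, 2 of them above the highest control and 2, MMS 2 and MMS 4, below the lowest. The log2 fold change was 0.0003 (SE 0.17; adjusted p = 1.00 in edgeR), and its 95% interval of -0.35 to 0.35 reaches from a fall of 21.6% to a rise of 27.6%. Without MMS 2 and MMS 4 it was 0.22 (SE 0.13; unadjusted p = 0.0905 and adjusted p = 0.961 in edgeR), with a mean of 42.2 ± 3.43 CPM in the 4 remaining MMS pups. With the ependymal score as a covariate it was 0.30 (unadjusted p = 0.0498 and adjusted p = 0.998 in edgeR).

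Dusp1 (chr17:26505590-26562128, minus strand) had close means in both groups as well. Its controls ran from 10.1 through a median of 12.1 to 15.9 CPM and its MMS values from 11 through 12.2 to 17.1 CPM, so that 5 of 6 MMS libraries fell within the range of the controls. The means were 12.6 ± 2.42 and 12.8 ± 2.18 CPM (SD over 6 pups each), with a log2 fold change of 0.01 (SE 0.18, 95% interval -0.36 to 0.39; adjusted p = 0.986 in edgeR). It was 0.10 (SE 0.20) without MMS 2 and MMS 4. A long annotated transcript of Dusp1 shares exon sequence with Ergic1 on the opposite strand, and it is not known whether the counting used strand.

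Dusp4 and Dusp5 were near the limit of detection, with 89 and 98 counts over all 12 libraries. With all 12 included, neither passed the count filter. Dusp4 (chr8:34807297-34819894, plus strand) had 4 to 18 counts in a control and 2 to 9 in an MMS library. In CPM its controls ran from 0.617 through a median of 2.38 to 3.02 and its MMS values from 0.588 through 1.11 to 1.61. The lower values lay mostly in the MMS group, although 1 control was as low as the lowest MMS libraries. The means were 2.11 ± 0.840 and 1.10 ± 0.464 CPM (SD over 6 pups each; two-sided exact permutation test, p = 0.0281, not adjusted over genes). In a fit without a count filter its log2 fold change was -0.88 (SE 0.51; unadjusted p = 0.0879 and adjusted p = 0.586 in edgeR), where 8.66% of genes were called at an unadjusted p under 0.05. MMS 2 and MMS 4 had the highest MMS values. Without them Dusp4 passed the count filter, with a log2 fold change of -1.29 (SE 0.55; unadjusted p = 0.027 and adjusted p = 0.961 in edgeR). In that fit 5.03% of genes reached an unadjusted p under 0.05, 2.62% on the lower side.

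Dusp5 (chr19:53529109-53542431, plus strand) was low in all but a few libraries. It ran from 1.08 through a median of 1.28 to 2.18 CPM in controls. In MMS pups it ran from 0.468 through 0.986 to 8.70 CPM, with 27 counts in MMS 6 and 15 in MMS 5 where no other library passed 13. The median was thus lower in MMS pups while the mean was higher, 2.48 ± 3.17 against 1.38 ± 0.409 CPM (SD over 6 pups each; two-sided exact permutation test, p = 0.628). An antisense gene shares exon sequence with Dusp5.

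Matches to a few fixed motif patterns were looked for before these phosphatase genes. The bases before the transcription start were taken from RefSeq (GRCm38.p6, the mm10 build), where 7 of the 10 members were matched. The promoters of Dusp4, Spry4 and Etv4 were not analysed here. Both strands of the 250 bases were searched for the cAMP response element TGACGTCA, the AP-1 site TGANTCA, the CArG box bound by SRF, the ETS site CCGGAAGT and the TATA box TATAAA, and none of these overlap in the matches found. A cAMP response element stood in the Dusp1 window alone, and it occurs in 1.55% of all 32851 RefSeq promoters. CArG boxes stood in the Dusp5 window alone, adjoining each other, and a CArG box occurs in 1.47% of promoters. None of these 7 members had an AP-1, ETS or TATA match, which 6.75%, 2.88% and 12.4% of promoters have. Only these patterns within this window were searched, so variant sites and sites elsewhere would be missed, and binding was not tested. Capitals mark the matches. The printed Dusp1 window is chr17:26508523-26508722 on the minus strand and the printed Dusp5 window chr19:53528895-53529104 on the plus strand. Both end short of annotated exons of their gene, as the last 50 bases before the start for Dusp1 and 40 for Dusp5 are left out. The printed Dusp5 window lies within an exon of the antisense gene that overlaps Dusp5. Dusp6 (chr10:99262981-99263230, plus strand) is shown for comparison, with no match to these patterns.
Dusp1: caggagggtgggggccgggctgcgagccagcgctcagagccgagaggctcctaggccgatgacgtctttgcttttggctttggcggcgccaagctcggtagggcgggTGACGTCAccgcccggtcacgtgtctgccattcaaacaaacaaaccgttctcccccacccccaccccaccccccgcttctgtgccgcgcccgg
Dusp5: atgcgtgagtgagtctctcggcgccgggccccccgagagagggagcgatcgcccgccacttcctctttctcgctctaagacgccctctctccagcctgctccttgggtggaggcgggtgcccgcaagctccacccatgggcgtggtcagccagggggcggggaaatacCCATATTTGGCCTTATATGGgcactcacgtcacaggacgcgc
Dusp6: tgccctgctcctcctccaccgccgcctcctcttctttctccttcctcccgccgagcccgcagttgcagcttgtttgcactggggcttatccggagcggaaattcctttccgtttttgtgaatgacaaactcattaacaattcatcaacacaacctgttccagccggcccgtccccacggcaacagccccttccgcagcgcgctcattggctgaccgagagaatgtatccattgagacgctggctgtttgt

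No Sprouty gene passed the adjusted threshold, and Spry2 was the member furthest from 0 relative to its error. Spry2 (chr14:105891947-105896819, minus strand), which encodes a membrane-bound inhibitor of receptor signalling to RAS, had a control mean of 67.1 ± 7.19 CPM and an MMS mean of 49.5 ± 11.4 CPM (SD over 6 pups each). Controls ran from 56.2 through a median of 68.8 to 76.1 CPM and MMS pups from 34.7 through 48.7 to 63.4 CPM. All 6 MMS libraries were below the control median and 4 were below the lowest control, while MMS 1 and MMS 3 fell among the lower controls. The log2 fold change was -0.44 (SE 0.14, 95% interval -0.73 to -0.15; unadjusted p = 0.00447 and adjusted p = 0.521 in edgeR). That p was the 111th smallest of 13104. MMS 2 and MMS 4 were the lowest, at 34.7 and 40.1 CPM, and without both the log2 fold change was -0.27 (SE 0.12; unadjusted p = 0.0324 and adjusted p = 0.961 in edgeR), where 5.03% of genes reached an unadjusted p under 0.05 and 2.62% did so on the lower side. With the ependymal score as a covariate it was -0.27 with an unadjusted p of 0.0608 in edgeR.

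The window before the Spry2 start, chr14:105896820-105897069 on the minus strand, is printed as that of the member with the largest change relative to its error. It has none of the motifs searched, so it has no capitals.
Spry2: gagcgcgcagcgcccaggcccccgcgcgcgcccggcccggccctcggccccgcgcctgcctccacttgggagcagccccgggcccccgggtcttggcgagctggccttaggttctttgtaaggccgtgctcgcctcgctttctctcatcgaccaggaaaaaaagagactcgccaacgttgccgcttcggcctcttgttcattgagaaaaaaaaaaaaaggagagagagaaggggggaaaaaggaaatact

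Spry1 (chr3:37639947-37644598, plus strand), a close relative of Spry2, had its higher values in MMS pups. Controls ran from 4.81 through a median of 6.73 to 12.5 CPM and MMS pups from 6.44 through 11.8 to 14.0 CPM. The groups overlapped broadly, and only MMS 2 and MMS 4, at 13.4 and 14.0 CPM, exceeded the highest control. The means were 7.88 ± 2.90 and 10.8 ± 3.24 CPM (SD over 6 pups each), and the log2 fold change was 0.45 (SE 0.26, 95% interval -0.08 to 0.98; unadjusted p = 0.0899 and adjusted p = 0.584 in edgeR). Without MMS 2 and MMS 4 it was 0.24 (SE 0.27; unadjusted p = 0.394 in edgeR). A further gene of unknown kind on the opposite strand shares exon sequence with Spry1.

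Spry4 (chr18:38586247-38601415, minus strand) was the least abundant Sprouty gene. Controls ran from 3.44 through a median of 5.43 to 9.90 CPM and MMS pups from 4.51 through 6.02 to 13.8 CPM. Apart from MMS 4, which was highest, all MMS values lay within the range of the controls. The log2 fold change was 0.20 (SE 0.32, 95% interval -0.47 to 0.87; adjusted p = 0.849 in edgeR), and it was -0.26 (SE 0.32) without MMS 2 and MMS 4.

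Spred1 (chr2:117121374-117182279, plus strand), whose product holds neurofibromin at the membrane to switch RAS off, was the most abundant member. It had 113 ± 14.4 CPM in controls, between 99.98 and 132 CPM with a median of 111, and 124 ± 4.51 CPM in MMS pups, between 117 and 130 CPM with a median of 125 (SD over 6 pups each). All MMS libraries fell within the range of the controls and lay close together. The log2 fold change was 0.13 (SE 0.10, 95% interval -0.07 to 0.34; adjusted p = 0.666 in edgeR). At this depth it had the narrowest interval of the 8 tested members.

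The ratios of the Sprouty genes within each library were taken after their values were seen and are given as a description, with no test. The log2 ratio of Spry1 to Spry2 was -3.16 ± 0.635 in controls and -2.23 ± 0.647 in MMS pups (SD over 6 pups each), a difference of 0.93. The groups overlapped, as control 1, at -2.17, was above 4 of the MMS libraries, and the highest ratios were those of MMS 2 (-1.37) and MMS 4 (-1.52). Without these libraries the difference was 0.53. The ratio to Spry4 differed by 0.31 for Spry1 and by -0.62 for Spry2, and by 0.45 and -0.09 without MMS 2 and MMS 4.

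The ETS factors, which are read as targets of FGF signalling, did not differ in level between groups beyond their spread. Etv5 (chr16:22381309-22439719, minus strand) ran from 27.5 through a median of 31.3 to 36.2 CPM in controls and from 22.6 through 31.9 to 39.7 CPM in MMS pups. The MMS range enclosed that of the controls, with MMS 2 and MMS 4 at its lower end. Its log2 fold change was -0.02 (SE 0.16, 95% interval -0.34 to 0.31; adjusted p = 0.979 in edgeR), and it was 0.17 (SE 0.14) without MMS 2 and MMS 4. Etv4 (chr11:101769742-101785371, minus strand) ran from 59.2 through a median of 70.5 to 81.0 CPM in controls and from 42.1 through 65.6 to 83.2 CPM in MMS pups. Its lowest value was that of MMS 3, with MMS 2 and MMS 4 next at 50.5 and 54.8 CPM, and the other 3 MMS libraries were at or above 76.3 CPM. The log2 fold change of Etv4 was -0.12 (SE 0.15, 95% interval -0.43 to 0.19; adjusted p = 0.8 in edgeR), and it was 0.01 (SE 0.14) without MMS 2 and MMS 4.

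**Figure D2:**
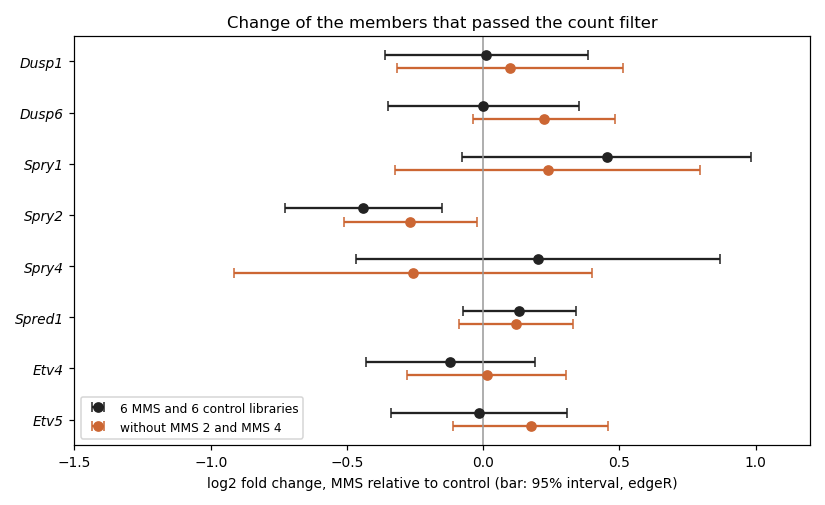
Log2 fold change of MMS relative to control on the x axis for the 8 tested members, with 95% intervals from edgeR, for all 12 libraries (dark) and without MMS 2 and MMS 4 (orange). Only the intervals of Spry2 leave out 0, and Dusp6, Etv4, Etv5 and Spry4 shift across or away from 0 when these 2 libraries are left out.

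In MMS 2 and MMS 4 some members were at the edge of all libraries. Of 8 tested members 3 (Dusp6, Spry2 and Etv5) were lower in both than in any of the other 10 libraries, which held for 15.1% of all tested genes, and 1 (Spry1) was higher in both than in any other, which held for 14.6% and is no more than the background. The coefficient of variation was 11.3% in controls and 27.7% in MMS pups for Dusp6, 10.7% and 23.0% for Spry2, 10.3% and 24.8% for Etv5, and 36.8% and 30.1% for Spry1. In the same libraries the summed level of 6 neuronal markers was 7648 and 7489 CPM, against 9282 to 10380 CPM in controls. The lower sum came mostly from the tubulin gene Tubb3 (1280 and 1307 CPM, 3163 ± 175 CPM in controls), and Rbfox3 and Gap43 were also below all controls, while Snap25 (407 and 464 CPM, highest control 390 CPM) and Stmn2 (2027 and 2172 CPM, highest control 1933 CPM) were above all controls. The summed level of 8 astrocyte markers was 2490 and 2499 CPM, against 1824 to 2232 CPM in controls. Its members were mixed as well. Slc1a3 (683 and 652 CPM, highest control 522 CPM) and Aldoc were above all controls in both libraries. For Aldoc this held in all 6 MMS libraries (600 to 671 CPM, highest control 582 CPM). Groups without overlap were found in 0.389% of tested genes. Gfap (42.4 and 42.6 CPM, lowest control 69.2 CPM) and S100b (161 and 163 CPM, lowest control 174 CPM) were below all controls in MMS 2 and MMS 4. The summed level of 9 oligodendrocyte markers was 1258 and 1177 CPM, against 842 to 1207 CPM in controls. The part of these cell types in the members' values was not tested.

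**Figure D3:**
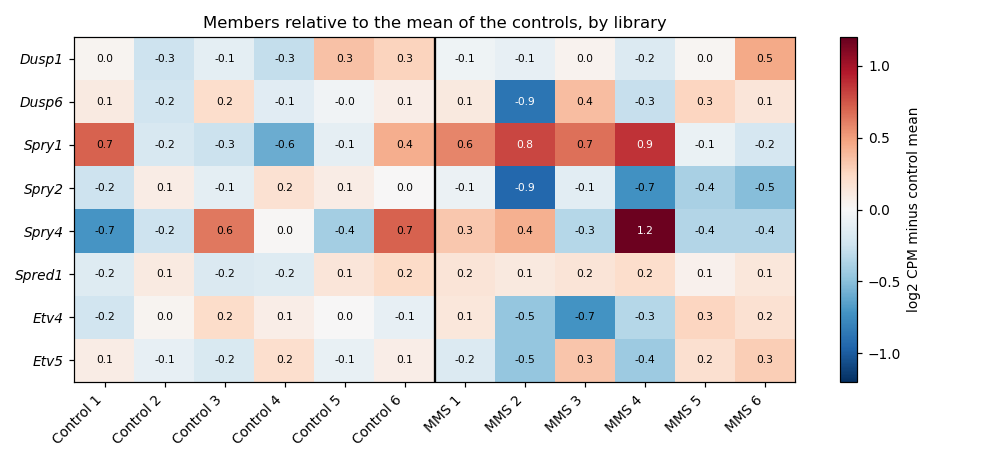
Log2 CPM of the 8 tested members in each library (columns) minus the mean of the controls (red higher, blue lower). The MMS 2 and MMS 4 columns are blue for Dusp6, Spry2, Etv4 and Etv5 and red for Spry1 and Spry4, while Spred1 stays pale throughout.

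The members covered a wide range of levels in the pup hypothalamus. Over all 12 libraries the mean was 119 CPM for Spred1, 67.1 CPM for Etv4, 58.3 CPM for Spry2, 36.2 CPM for Dusp6, 31.4 CPM for Etv5, 12.7 CPM for Dusp1, 9.32 CPM for Spry1, 6.74 CPM for Spry4, 1.93 CPM for Dusp5 and 1.61 CPM for Dusp4. Spred1 was above Etv4, Spry2 above Dusp6, and Etv5 above Dusp1 in all 12 libraries. Etv4 was above Spry2 in 8 of 12 libraries, 3 of the 6 controls and 5 of the 6 MMS libraries, so these neighbours did not differ beyond their spread. Dusp5 was above Dusp4 in only 4 of 12. The other neighbours kept their order in 10 or 11 libraries.

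Levels of the members were also compared with each other across libraries. Over the 10 libraries other than MMS 2 and MMS 4, 45 pairs were correlated on log2 CPM, and 22 of the coefficients were positive, with a median of -0.05. None was past 0.05 after adjustment over the 45 pairs by Pearson's r or Spearman's rho, and 3 had an unadjusted permutation p under 0.05 for r. The pair with the largest absolute rho was Dusp6 and Spry2 (r = -0.65, permutation p = 0.0416, adjusted 0.603, rho = -0.77, permutation p = 0.0123, adjusted 0.554, n = 10). With the group means removed its r was -0.40, without the 2 libraries farthest from the median of Dusp6 it was -0.78, and over all 12 libraries, where MMS 2 and MMS 4 were low in both genes, it was 0.50. The other pairs were Dusp5 with Spry2 (r = -0.72, permutation p = 0.0148, adjusted 0.603, rho = -0.47, permutation p = 0.178), whose r fell to 0.0045 without the 2 libraries farthest from the median of Dusp5, and Spry1 with Etv4 (r = -0.64, permutation p = 0.0296, adjusted 0.603, rho = -0.59, permutation p = 0.0824), whose r was then -0.30. The relation of Dusp5 with Spry2 rested on those libraries, and that of Spry1 with Etv4 weakened without them.

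The rest of the pathway was described with 6 lists of 95 genes, of which 69 were tested. None of the 69 passed the adjusted threshold in edgeR. At an unadjusted p under 0.05, 3 were higher and 3 lower, beside 4.68% and 4.4% of all genes, and the median log2 fold change was 0.01. Without MMS 2 and MMS 4 there were 5 in place of 6, beside 5.03% of all tested genes in either direction.

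Of the closest relatives of the members, 8 of 10 were tested. At an unadjusted p under 0.05, 2 were lower and 0 higher, beside 4.4% and 4.68% of all tested genes. Spred3 had a control mean of 22.6 ± 4.38 CPM and an MMS mean of 16.2 ± 4.56 CPM, and a log2 change of -0.47 (SE 0.19; adjusted p = 0.543 in edgeR), and it shares exon sequence with Ggn on the opposite strand. Dusp2, which encodes another nuclear phosphatase, was 21.3 ± 3.19 and 16.1 ± 4.90 CPM, with -0.40 (SE 0.19; adjusted p = 0.544 in edgeR). Spred3 was at 12.4 and 12.8 CPM and Dusp2 at 9.94 and 12.6 CPM in MMS 2 and MMS 4, and without these libraries they were -0.30 and -0.19, neither at an unadjusted p under 0.05. Etv1, the third PEA3 factor, had a log2 change of 0.31 (SE 0.20; adjusted p = 0.626 in edgeR).

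At the top of the pathway, 0 of 8 tested FGF ligands and receptors and 0 of 7 tested EGF family genes reached an unadjusted p under 0.05. Fgfr1 was level at 41.0 ± 2.56 and 41.2 ± 2.86 CPM (SD over 6 pups each), and Fgfr3 was the most abundant of the receptors, at 124 ± 17.3 and 139 ± 18.8 CPM, a log2 change of 0.17 (SE 0.12; adjusted p = 0.638 in edgeR). Fgfr2 had a log2 change of 0.25 (SE 0.20; adjusted p = 0.680 in edgeR). Without MMS 2 and MMS 4 it became 0.45 (SE 0.19; unadjusted p = 0.0253 and adjusted p = 0.961 in edgeR), beside 5.03% of genes at an unadjusted p under 0.05. In MMS 2 and MMS 4 the level of Fgfr2 was 13.4 and 12.4 CPM against 14.9 ± 2.79 CPM in controls. As annotated, Fgfr2 shares exon sequence with Ctbp2 on the same strand. The ligand genes Fgf2, Fgf8 and Fgf22 had no count in any library, which allows up to 0.0544 CPM over all libraries, by counting error only. On the opposite strand, Nudt6 shares exon sequence with Fgf2 and Rnf126 with Fgf22. How reads in such overlaps were counted is not known, and the limit does not cover it.

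Of 25 tested genes between the receptor and ERK, 1 was lower at an unadjusted p under 0.05, beside 4.4% of all tested genes. This was Shc1, which encodes an adaptor that couples receptors to RAS. Its controls ran from 7.34 to 10.3 CPM and its MMS values from 2.48 to 7.02 CPM, so all 6 MMS libraries lay below all controls. Groups without overlap, in either direction, were found in 0.389% of all tested genes (51 of 13104). Shc1 was named as the gene with the smallest p of its list. The means were 8.94 ± 1.21 and 4.66 ± 1.82 CPM (SD over 6 pups each), with a log2 fold change of -0.93 (SE 0.26; unadjusted p = 0.00153 and adjusted p = 0.471 in edgeR), and it was -0.83 (SE 0.27) without MMS 2 and MMS 4. Of the others, the scaffold gene Frs2 had 0.42 (SE 0.23; adjusted p = 0.580 in edgeR). Of 10 tested JNK and p38 kinase genes, 0 reached an unadjusted p under 0.05, with a median log2 fold change of -0.01.

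Other transcripts that ERK induces gave the higher genes. Of 11 tested, 3 were higher at an unadjusted p under 0.05 and 0 lower, beside 4.68% and 4.4% of all tested genes. Still, 6 of 11 were below 0 and the median log2 fold change was -0.16. They were Fos (1.24, SE 0.30), Errfi1 (0.72, SE 0.23), which encodes a feedback inhibitor of the EGF receptor, and Egr1 (0.56, SE 0.23), with edgeR adjusted p-values of 0.385, 0.543 and 0.543. Egr1 was 20.2 and 18.1 CPM in MMS 2 and MMS 4, near the controls at 21.3 ± 5.01 CPM, and without these libraries its log2 fold change was 0.83 (SE 0.18; adjusted p = 0.129 in edgeR). Fos, at 3.64 ± 1.34 CPM in controls and 8.58 ± 3.40 CPM over all MMS pups, was 0.85 (SE 0.32) and Errfi1 0.57 (SE 0.25) then. Errfi1 is also a glucocorticoid target, as is Dusp1.

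**Figure D4:**
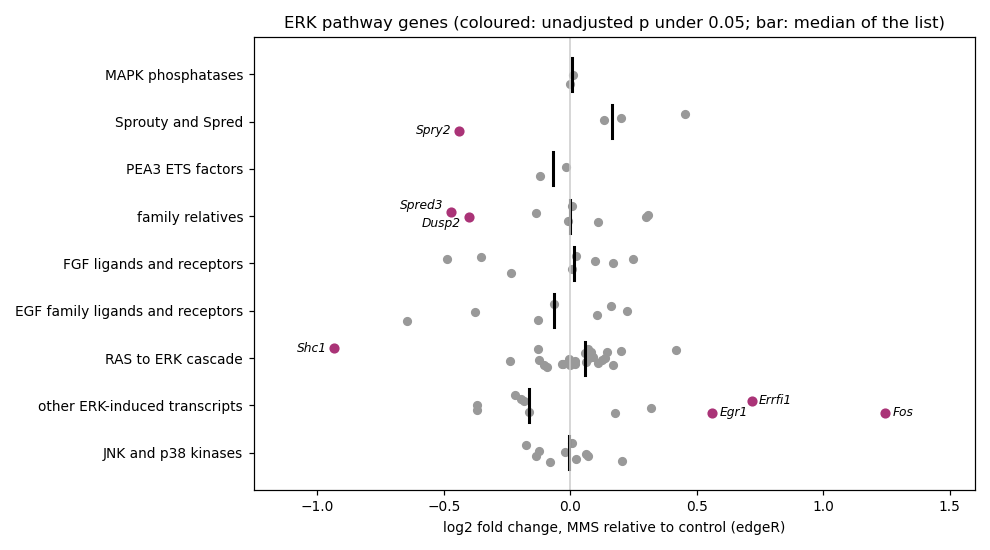
Log2 fold change of MMS relative to control (x axis, edgeR) for each tested gene of the members' families and of 6 pathway lists (rows), coloured where the unadjusted p was under 0.05, with a bar at the median of each list. Most genes lie close to 0, Spry2, Spred3, Dusp2 and Shc1 lie on the lower side, and Fos, Errfi1 and Egr1 on the higher side.

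Dusp1, Fos and Egr1 are all immediate early genes, and the ratios to Dusp1 within each library set them side by side. These pairs were chosen with the log2 fold changes of Fos and Dusp1 known, so the ratios restate those values and carry no test. The log2 ratio of Fos to Dusp1 was -1.84 ± 0.447 in controls and -0.66 ± 0.681 in MMS pups (SD over 6 pups each), a difference of 1.19, which was 0.78 without MMS 2 and MMS 4. The log2 ratio of Egr1 to Dusp1 was 0.75 ± 0.387 in controls and 1.23 ± 0.451 in MMS pups, a difference of 0.47, which was 0.71 without MMS 2 and MMS 4. MMS 2 and MMS 4 thus had the highest ratios of Fos (0.22 and 0.11) and the lowest MMS ratios of Egr1 (0.80 and 0.72).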

How the data were processed

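3' mRNA libraries (QuantSeq) were sequenced by the authors on an Ion Proton and aligned to mm10 in Torrent Suite. The authors deposited raw counts per gene, 1 column per library. No source used here gives the counting tool, its annotation or its strand setting. Libraries were grouped by sample title. In 27 rows, with 0.175% of counts, the symbol had become a date, and these were kept unnamed. The members, lists and tests were chosen with earlier results of these data known.

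Counts were tested by quasi-likelihood in edgeR 4.0.16 (R 4.3.3), with TMM scaling, robust dispersions and the default filter (minimum count 10, minimum total 15), two-sided, adjusted by Benjamini-Hochberg over 13104 genes at 0.05. CPM used the same scaling, and log2 CPM a prior count of 2. DESeq2 1.42.0, limma 3.58.1 (voom), sva 3.50.0 and other settings were alternatives. Pathway lists and ratios without MMS 2 and MMS 4 were added after the values were seen. The steps were tested on simulated data. Pair correlations used 100000 permutations. Of 6 pathway and 13 marker lists, the text names up to 3 genes each with the smallest p and a mean of at least 10 counts. Some others (Fgfr1, Pou1f1, Agrp, Rax, Pmch, Hmx2, Rbfox3, Gap43, Gfap, S100b and the genes at 0) were chosen after their values were seen. Coordinates are from GENCODE M21 (GRCm38), 1-based. Library pairs within a group differed by more than sampling noise (chi-square per degree of freedom of 4.04 or more), so each counted as 1 sample. Without molecular identifiers, limits cover counting error only. One gene that the naming rule selects is not reported here.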

Additional observations from a re-analysis of the deposited data

Results flagged for a closer look

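Each member was checked in each group for a single library lying far outside the others, by Dixon's criterion. Of these 20 sets of 6 values 3 met it, and about 1 would by chance, as 1 in 20 does. Dusp5 was 8.70 CPM in MMS 6 (27 counts) and 2.18 CPM in control 3, the highest library of each group. Dusp1 was 17.1 CPM in MMS 6, again the highest of its group. The cause was not tested.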

How the results depend on the processing

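Of the members, 0 passed the adjusted threshold in the 11 other settings and in the 12 fits that left out 1 library. The number of all genes past it was 6 with DESeq2, 5 without MMS 2 and MMS 4, 4 with 1 surrogate variable, 2 with the ependymal score as a covariate, and 1 each without scaling and without a count filter, and it ran from 0 to 1 on leaving out 1 library. The cause was not tested. Spry2 kept its sign throughout, from -0.47 to -0.27 across settings and from -0.52 to -0.35 without 1 library, with edgeR unadjusted p-values of 0.00134 to 0.0135 in the latter. Genes near 0 changed sign. Dusp1 was -0.0075 and Dusp6 -0.0581 in limma-voom, and Dusp6 was -0.0050 at a mean of at least 50 counts. Dusp6 was 0.24 with 1 surrogate variable (unadjusted p = 0.0755 in edgeR) and 0.30 with the ependymal score (unadjusted p = 0.0498 in edgeR). With that score 494 of 13104 genes reached an unadjusted p under 0.05. Etv5 was 0.0504 with limma quality weights. With 1 surrogate variable, the ependymal score, or without MMS 2 and MMS 4, Spry4 was -0.26, -0.25 and -0.26, Etv4 0.0243, 0.00999 and 0.0124, and Etv5 0.19, 0.24 and 0.17. Without 1 library, Dusp1 ran from -0.0803 to 0.10, Dusp6 from -0.0808 to 0.13, Spry4 from -0.11 to 0.38 and Etv5 from -0.0928 to 0.0698.

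The labels give both groups replicate numbers, and with the replicate number as a block 1 gene passed the threshold and Dusp6 was -0.0275. Same-numbered libraries correlated at -0.05 to 0.12 in their deviations from group means, over 0.1 in 2 of 6 pairs, and 2 of 6 controls correlated best with their own number, so the numbers were not taken as pairs. With all libraries included, the counts of Dusp4 and Dusp5 were too few for the count filter, and a count near 0 per library limits both.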

Other observations

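Summed marker levels of other cell types and of neighbouring brain regions overlapped between groups. Controls and MMS pups ran from 50.6 to 72.0 and from 40.8 to 65.4 CPM for dividing cells, from 134 to 162 and from 95.9 to 156 CPM for endothelial cells, and from 150 to 196 and from 132 to 181 CPM for microglia. Meninges and fibroblast markers ran from 215 to 437 CPM in controls and from 98.1 to 472 CPM in MMS pups, and red blood cell markers from 850 to 1534 and from 616 to 1499 CPM. Telencephalic markers ran from 24.3 to 54.7 and from 30.6 to 61.5 CPM, and thalamic markers from 186 to 742 and from 213 to 608 CPM.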
